A study of Mus musculus with 7 samples.

Results

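Axon guidance ligands and receptors are secreted or membrane-bound cues and the surface proteins that read them. The genes described here were taken by symbol from the deposited count table: semaphorins (Sema), plexins (Plxn), neuropilins (Nrp1 and Nrp2), ephrins (Efna and Efnb), Eph receptors (Epha and Ephb), netrins (Ntn1, Ntn3, Ntn4 and Ntn5), Dcc, Unc5, Slit and Robo. The rule found 72 of the 24047 genes in the table, after 6 Slitrk genes were left out, and 62 of the 72 had 10 or more counts summed over the libraries and were tested among 14588 genes. The symbols also take in Unc50 and Unc5cl, which are not netrin receptors, and Plxna4os1, an antisense RNA.

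The cells were SMB21, an established mouse medulloblastoma line of the Ptch1tm1Mps/J strain background and Ptch-mutant genotype, cultured as floating neurospheres. Its Ptch1 gene codes for the receptor holding the Hedgehog pathway in check. All groups, the controls included, carried that mutant background and a lentiCRISPR vector, and RNA was taken 2 weeks after infection. The guide was against GFP in 2 control libraries, against Ofd1 (a basal body gene) in 3 Ofd1 CRISPR libraries, and against Kif3a (a kinesin-2 motor gene) in 2 Kif3a CRISPR libraries; single libraries are numbered as in the labels (GFP control 1, Ofd1 CRISPR 3). Both genes are needed to build the primary cilium. Whether a library came from a pool of cells or from a clone is not given in the sources used here, and all results are for 1 line. The labels call the libraries biological replicates, and the p-values measure the spread between them.

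As background, growing axons and migrating neurons steer by such cues in attraction or repulsion. Netrin-1 attracts through Dcc and repels through Unc5 receptors, Slits repel through Robo receptors, and semaphorins signal through plexins, with neuropilins as co-receptors for the secreted class. Ephrins and Eph receptors both sit on cell surfaces, so that each can signal into its own cell. In the developing cerebellum, these families take part in the movement of granule neuron progenitors, the cells from which Hedgehog-driven medulloblastoma arises.

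The libraries held 17961767 to 23022701 counts, of which the guidance genes took 0.451% to 0.571%. Levels are given as CPM, a gene's counts put on a common library size with TMM factors (0.984 to 1.02), and 3 counts, the floor set for a count of 0, correspond to 0.129 to 0.166 CPM. Kif3a stood at 104 and 104 CPM with the GFP guide, 90.5, 92.9 and 97.5 CPM with the Ofd1 guide and 73.9 and 60.7 CPM with the Kif3a guide, a fall in its own CRISPR group (log2 -0.62, adjusted p = 0.00147). For Ofd1 the level was 22.5 and 23.1 CPM with the GFP guide, 20.97, 19.98 and 22.03 CPM with the Ofd1 guide and 31.6 and 29.1 CPM with the Kif3a guide, and a lower transcript level was not called in its own CRISPR group (log2 -0.12, adjusted p = 0.406). The Ofd1 transcript was called higher in Kif3a CRISPR (log2 0.41, adjusted p = 0.0138). Whether the Ofd1 guide disrupted its gene cannot be read from the transcript level alone. The Hedgehog target Ptch1 fell in both CRISPR groups (log2 -0.91 in Ofd1 CRISPR and -1.25 in Kif3a CRISPR). Summed over 10 granule neuron lineage markers, the level was 2463 and 2471 CPM in GFP control and 2788 to 3362 CPM in the other libraries. Of the 10, 9 were present in every library, and Gabra6, of mature granule neurons, was at 0 throughout. Atoh1 stood at 364 and 388 CPM in GFP control and 496 to 619 CPM in the others. These markers did not all move with the sum. Barhl1 stood at 637 and 639 CPM in GFP control and 832 to 1108 CPM in the others. Atoh1, Pax6, Cntn2, Neurod1 and Neurod2 were likewise above both controls in every other library. Rbfox3 was lower in the others, at 277 and 289 CPM in GFP control and 185 to 228 CPM there. Zic1 overlapped, at 726.5 and 706 CPM in GFP control and 675 to 745 CPM in the others, and so did Zic2. Summed over 9 oligodendrocyte lineage markers, of which Sox10 and Mog were at 0 throughout, the level was 299 and 314 CPM in GFP control and 126 to 210 CPM in the others, mostly from Pdgfra. The 15 microglia and macrophage markers summed to 54.2 CPM in GFP control 1 and to 3.10 to 5.81 CPM elsewhere, with Cx3cr1 at 0 in all 7 libraries. Astrocyte markers (8 genes, Aqp4 at 0) summed to 584 and 603 CPM in GFP control and 588 to 787 CPM in the others, and endothelial (9) and fibroblast and mural markers (9) to 1.29 to 3.93 CPM. The part of these markers in the results below was not tested, and in such bulk RNA fewer cells of a type and less RNA per cell cannot be told apart.

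Against GFP control, more guidance genes rose than fell with either guide. A gene was called at an edgeR adjusted p under 0.05 over all tested genes. In Ofd1 CRISPR 16 of the 62 tested guidance genes rose (25.8%; 5.35% of all tested genes rose) and 5 fell (8.06%; 6.32% of all tested genes fell), and 41 did not pass. In Kif3a CRISPR 17 rose (27.4%, against 7.55% of all tested genes), 5 fell (8.06%, against 8.84%) and 40 did not pass. At a mean level of 2 CPM or more, 16 of 51 guidance genes rose (31.4%) and 5 fell (9.80%) in either comparison. The shares over all genes at that level were 6.57% higher and 7.68% lower in Ofd1 CRISPR, and 9.26% higher and 10.4% lower in Kif3a CRISPR. The share that rose thus stood above the background in both comparisons and the share that fell lay near it. The median log2 fold change of the 62 genes was 0.09 in each comparison and that of all genes 0.00. Both comparisons use the same 2 GFP control libraries, so they are not independent of each other.

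By name, Unc5a, Unc5b, Dcc, Ntn1, Efna3, Efna4, Efnb2, Ephb1, Ephb2, Sema5b, Sema6a, Sema7a, Plxnd1 and Robo2 rose in both, and Epha8, Ephb3, Sema4d, Plxna2 and Slit3 fell in both. Ephb6 and Sema6c were called higher in Ofd1 CRISPR and not in Kif3a CRISPR, and Plxna3, Plxnb2 and Unc5c in Kif3a CRISPR and not in Ofd1 CRISPR. Of these 5 genes none was called between Ofd1 CRISPR and Kif3a CRISPR. None was called in opposite directions. Members of 7 of the 8 ligand and receptor classes were among the genes that rose, the Slits being the class with none. The plot of log2 fold changes shows that most guidance genes lay close to 0 and that a few stood far above.

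**Figure D1:**
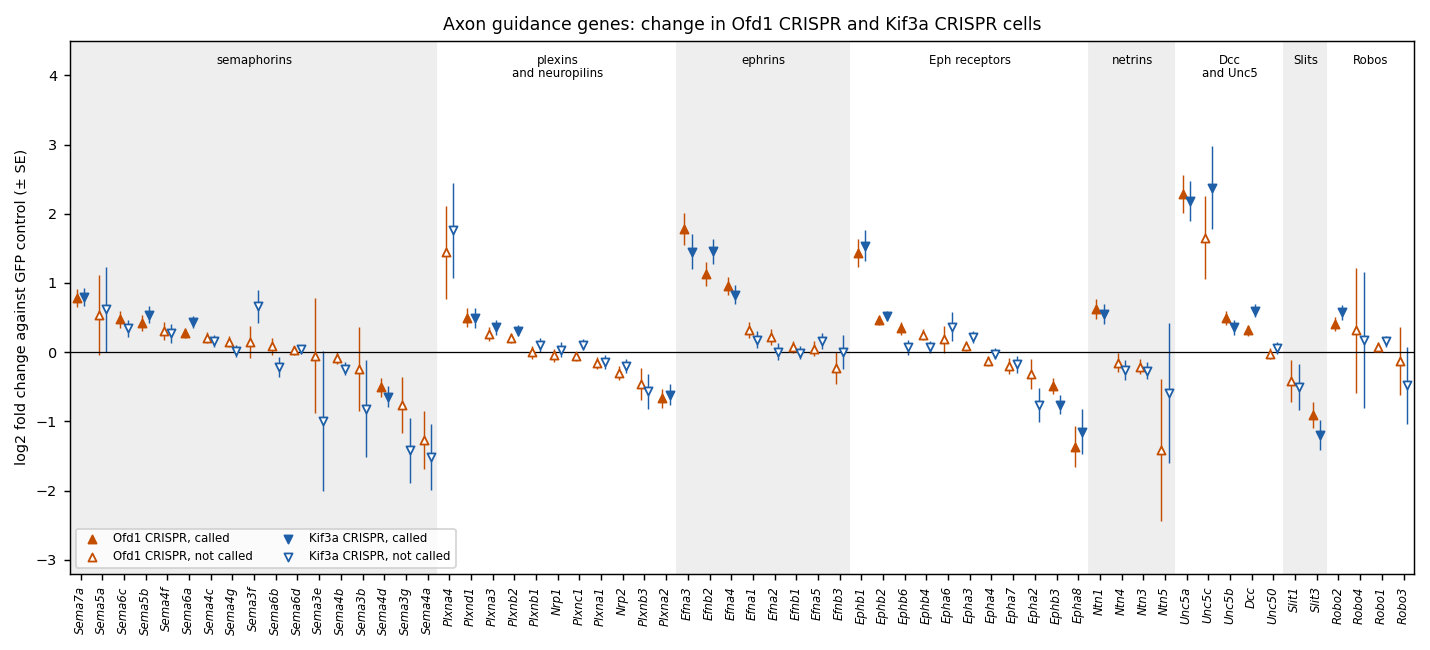
Log2 fold change against GFP control (vertical axis, error bars are the SE) of each of the 62 tested guidance genes, grouped by class, in Ofd1 CRISPR (upward triangles) and Kif3a CRISPR (downward triangles), with filled symbols for called genes. Unc5a, at 2.29 and 2.19, has the highest log2 fold change of the genes called in both comparisons, and Epha8, at -1.36 and -1.15, lies far below 0.

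Promoter sequences were looked at for letters bound by factors of this pathway and lineage. RefSeq windows of GRCm38.p6 (250 bases before to 50 bases after a transcription start) were matched by symbol for 61 of the 72 genes, in 77 windows. The letters GACCACCCA, the consensus bound by the Gli factors of the Hedgehog pathway, searched on both strands, occurred in 0 of the 77 windows and in 0.253% of all 32851 windows. At so low a share, 77 windows are too few to tell whether these letters were scarcer here than elsewhere. The E-box core CAGCTG, a palindrome of the kind bound by bHLH factors such as Atoh1, occurred in 12 windows (15.6%, against 16.3% of all windows), so it was about as frequent as elsewhere. Among the 24 called genes, 21 had a window and 5 of them held this core. Their stretches are shown because they hold it in genes that moved in either direction, 5′ to 3′ on the gene's own strand, with the core in capitals.
Sema7a: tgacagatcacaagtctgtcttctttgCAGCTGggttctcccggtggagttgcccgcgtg
Sema6c: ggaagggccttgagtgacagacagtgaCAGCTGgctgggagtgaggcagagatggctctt
Robo2: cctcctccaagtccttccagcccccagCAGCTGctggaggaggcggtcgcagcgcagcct
Ephb3: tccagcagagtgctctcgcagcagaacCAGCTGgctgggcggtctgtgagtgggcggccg
Sema4d: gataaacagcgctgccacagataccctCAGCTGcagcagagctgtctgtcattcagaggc

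Sema7a lies at chr9:57939892-57939951 (plus strand), Sema6c at chr3:95164171-95164230 (plus), Robo2 at chr16:74411830-74411889 (minus), Ephb3 at chr16:21204631-21204690 (plus) and Sema4d at chr13:51756741-51756800 (minus), where the coordinates are those of the printed stretch. The core began 193 bases before the start of Sema7a, 141 before that of Sema6c, 37 before that of Robo2, 137 before that of Ephb3 and 90 before that of Sema4d. The first 3 of these genes rose, Sema6c by its call in Ofd1 CRISPR, and the other two fell. A match is a run of letters and no measure of binding.

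Among netrins and their receptors every called gene rose. Of 4 tested netrin genes 1 rose in each comparison (25%, against 5.35% of all tested genes in Ofd1 CRISPR and 7.55% in Kif3a CRISPR). The median log2 fold change of these 4 was below 0, at -0.18 in Ofd1 CRISPR and -0.26 in Kif3a CRISPR. Of the 5 tested genes of the Dcc and Unc5 class, Unc50 included, 3 rose in Ofd1 CRISPR (60%) and 4 in Kif3a CRISPR (80%). Unc5a encodes a receptor that turns netrin-1 into a repellent and can signal cell death when netrin is absent. It stood at 6.33 and 6.11 CPM in the libraries with the GFP guide, 43.1, 25.9 and 21.8 CPM in those with the Ofd1 guide and 31.4 and 25.3 CPM in those with the Kif3a guide. All 5 libraries with an Ofd1 or Kif3a guide were far above both controls, and Ofd1 CRISPR 1 was the highest. The level was 4.87-fold that of the control in Ofd1 CRISPR (log2 fold change 2.29, SE 0.272, adjusted p = 0.000907) and 4.56-fold in Kif3a CRISPR (log2 fold change 2.19, SE 0.287, adjusted p = 0.000733). Unc5a overlaps Hk3 in the annotation, and Hk3 had 0 to 22 counts in a library, the 22 (1.08 CPM) being in GFP control 1.

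Unc5b, a related receptor known also from blood vessels, stood at 79.5 and 74.4 CPM with the GFP guide, 121, 110.3 and 94.8 CPM with the Ofd1 guide and 104 and 93.1 CPM with the Kif3a guide. It rose in Ofd1 CRISPR (log2 fold change 0.50, SE 0.100, adjusted p = 0.0104) and in Kif3a CRISPR (log2 fold change 0.36, SE 0.109, adjusted p = 0.0450), with no overlap with the controls. Dcc, the receptor through which netrin-1 attracts, stood at 142 and 144 CPM with the GFP guide, 176, 179.7 and 178 CPM with the Ofd1 guide and 238 and 196 CPM with the Kif3a guide. Its rise was small in Ofd1 CRISPR (log2 fold change 0.32, SE 0.0815, adjusted p = 0.0307) and larger in value in Kif3a CRISPR (log2 fold change 0.60, SE 0.0885, adjusted p = 0.00139), where Kif3a CRISPR 1 was the highest library of all. Ntn1, the gene of the ligand netrin-1, stood at 45.3 and 48.3 CPM with the GFP guide, 89.5, 61.4 and 65.3 CPM with the Ofd1 guide and 70.9 and 66.3 CPM with the Kif3a guide. It rose by 0.62 on the log2 scale in Ofd1 CRISPR (SE 0.138, adjusted p = 0.0159) and by 0.55 in Kif3a CRISPR (SE 0.149, adjusted p = 0.0292). Ntn1, Dcc, Unc5a and Unc5b were thus called higher in both groups, while the netrin receptor gene Neo1 was called in neither (log2 0.01, adjusted p = 0.934 and log2 0.11, adjusted p = 0.271).

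Unc5c, the receptor gene whose loss misplaces cerebellar granule cells in mice, was near the limit of detection: 8 and 4 counts in GFP control, 28, 18 and 9 in Ofd1 CRISPR, and 48 and 19 in Kif3a CRISPR. Its rise was called in Kif3a CRISPR (log2 fold change 2.38, SE 0.604, adjusted p = 0.0222) and not in Ofd1 CRISPR (log2 1.65, adjusted p = 0.0983). Ntn3 (log2 -0.21, adjusted p = 0.251 in Ofd1 CRISPR) and Ntn4 (log2 -0.15, adjusted p = 0.5) did not pass in either comparison, and Ntn5 had at most 0.196 CPM. In Ofd1 CRISPR, the call of Unc5b ended without GFP control 2 (adjusted p = 0.0646), that of Ntn1 without GFP control 1 (adjusted p = 0.0873), and that of Dcc without any 1 of GFP control 1, GFP control 2, Ofd1 CRISPR 1 and Ofd1 CRISPR 2 (adjusted p from 0.0605 to 0.175). In Kif3a CRISPR, the call of Unc5b ended without any 1 library other than Ofd1 CRISPR 1 or Ofd1 CRISPR 3 (adjusted p from 0.0664 to 0.288), that of Ntn1 without any 1 of GFP control 1, GFP control 2, Kif3a CRISPR 1 and Kif3a CRISPR 2 (adjusted p from 0.0569 to 0.199), and that of Unc5c without GFP control 2 (adjusted p = 0.0891) and without Kif3a CRISPR 1 (adjusted p = 0.222).

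**Figure D2:**
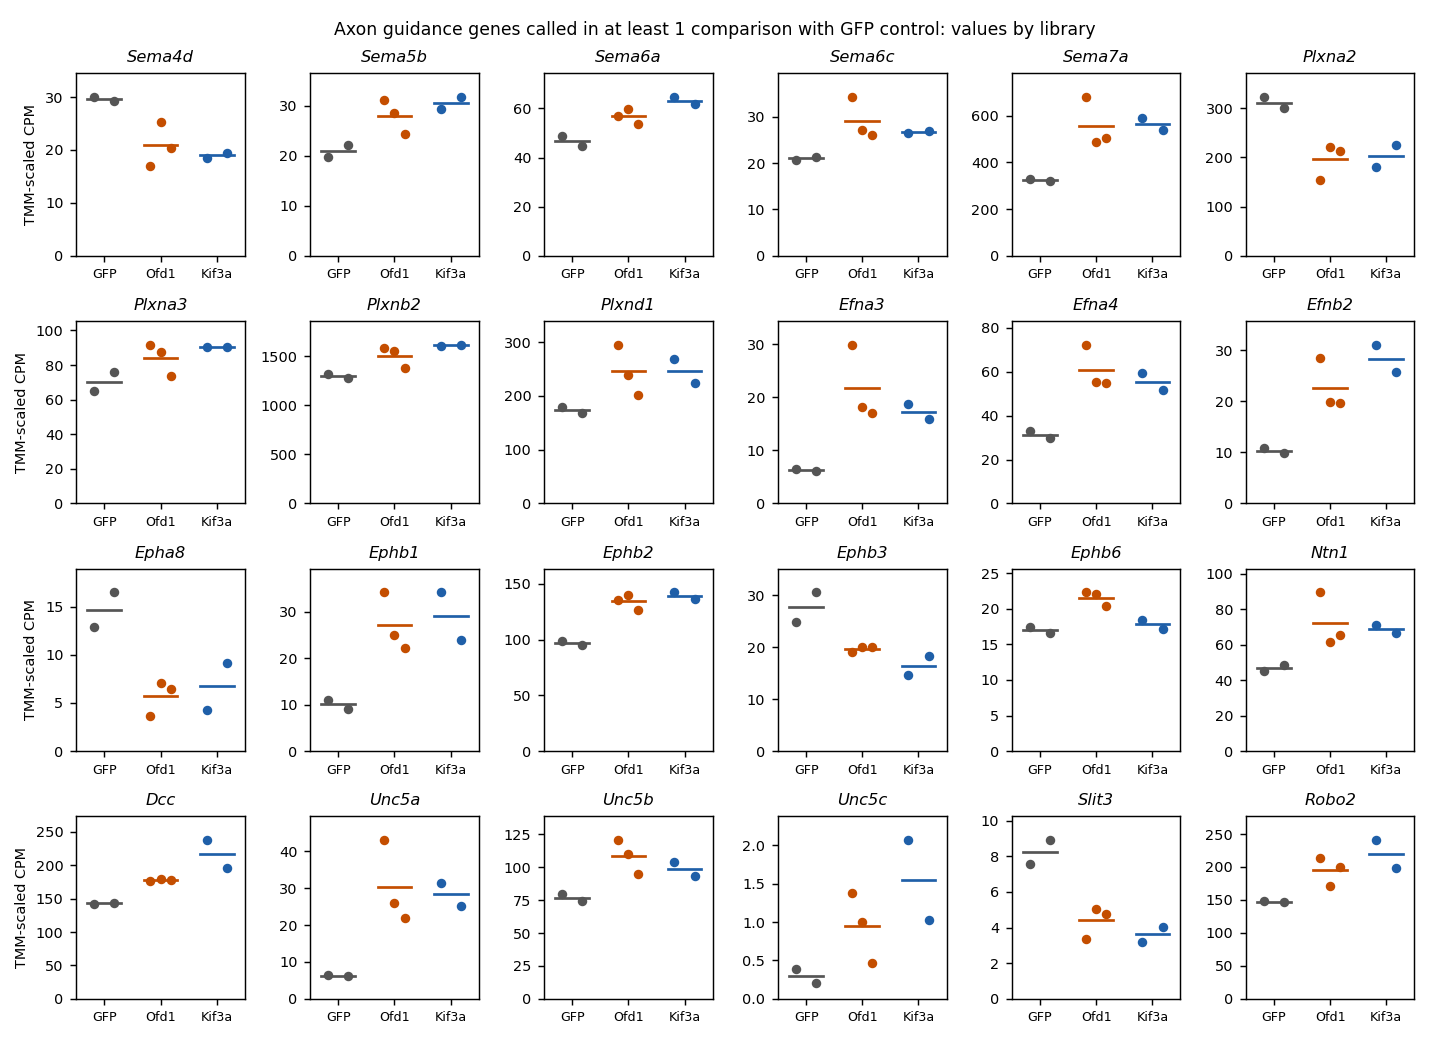
TMM-scaled CPM (vertical axes, starting at 0) of the 24 guidance genes called in at least 1 comparison with GFP control, one panel per gene. Points are single libraries (2 GFP control, 3 Ofd1 CRISPR, 2 Kif3a CRISPR), and bars are group means. In the Unc5a panel both controls lie at or below 6.33 CPM and the other libraries between 21.8 and 43.1 CPM.

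Of the 8 ephrin genes 3 rose in each comparison (37.5%, against 5.35% of all tested genes in Ofd1 CRISPR and 7.55% in Kif3a CRISPR) and none was called lower. Efna3 and Efna4 encode ephrins held to the membrane by a lipid anchor, the ligands of the EphA receptors. Efna3 stood at 6.53 and 6.16 CPM in the libraries with the GFP guide, 29.9, 18.1 and 17.1 CPM in those with the Ofd1 guide and 18.7 and 15.95 CPM in those with the Kif3a guide. Both controls were lower than every other library, and Ofd1 CRISPR 1 stood highest. Its level was 3.43-fold the control in Ofd1 CRISPR (log2 fold change 1.78, SE 0.234, adjusted p = 0.00151) and 2.73-fold in Kif3a CRISPR (log2 fold change 1.45, SE 0.250, adjusted p = 0.00323). Efna4 stood at 32.99 and 29.6 CPM with the GFP guide, 72.3, 55.2 and 54.6 CPM with the Ofd1 guide and 59.2 and 51.7 CPM with the Kif3a guide, again with no overlap. It rose in Ofd1 CRISPR (log2 fold change 0.96, SE 0.128, adjusted p = 0.00158) and in Kif3a CRISPR (log2 fold change 0.83, SE 0.137, adjusted p = 0.00263).

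Efna1, Efna3 and Efna4 are consecutive protein-coding genes in the RefSeq order of genes. Efna1, the one not called, stood at 26.7 and 24.7 CPM with the GFP guide, 36.7, 27.2 and 32.1 CPM with the Ofd1 guide and 27.96 and 30.4 CPM with the Kif3a guide and did not pass in Ofd1 CRISPR (log2 0.32, adjusted p = 0.103) or in Kif3a CRISPR (log2 0.18, adjusted p = 0.361). Efnb2 encodes a transmembrane ephrin, a ligand of EphB receptors that also marks arteries. It stood at 10.8 and 9.86 CPM with the GFP guide, 28.4, 19.8 and 19.7 CPM with the Ofd1 guide and 31.1 and 25.6 CPM with the Kif3a guide, with the Kif3a CRISPR libraries and Ofd1 CRISPR 1 above the other two Ofd1 CRISPR libraries. Efnb2 rose in Ofd1 CRISPR (log2 fold change 1.13, SE 0.172, adjusted p = 0.00275) and in Kif3a CRISPR (log2 fold change 1.46, SE 0.182, adjusted p = 0.000577). The transmembrane ephrins Efnb1 (log2 0.08, adjusted p = 0.595 in Ofd1 CRISPR) and Efnb3 (log2 -0.23, adjusted p = 0.554), and the anchored Efna2 (log2 0.22, adjusted p = 0.235) and Efna5 (log2 0.05, adjusted p = 0.822), did not pass in either comparison. In Kif3a CRISPR the call of Efna3 ended without Kif3a CRISPR 1 (adjusted p = 0.0554) and that of Efna4 without Kif3a CRISPR 1 (adjusted p = 0.0513).

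Eph receptors moved in both directions. Of 11 tested receptor genes, 3 rose and 2 fell in Ofd1 CRISPR (27.3% and 18.2%, against 5.35% and 6.32% of all tested genes). In Kif3a CRISPR 2 rose and 2 fell (18.2% each, against 7.55% and 8.84%). The genes that rose were all of the EphB class, which binds mainly the transmembrane ephrins. Ephb1 stood at 10.9 and 9.11 CPM in the libraries with the GFP guide, 34.2, 25.03 and 22.2 CPM in those with the Ofd1 guide and 34.1 and 24.01 CPM in those with the Kif3a guide. It was above both controls in all 5 other libraries, and rose 2.71-fold in Ofd1 CRISPR (log2 fold change 1.44, SE 0.206, adjusted p = 0.00210) and 2.91-fold in Kif3a CRISPR (log2 fold change 1.54, SE 0.219, adjusted p = 0.00114). Ephb2, a receptor of Efnb2 and other ephrins, stood at 99.1 and 95.4 CPM with the GFP guide, 135, 140.2 and 127 CPM with the Ofd1 guide and 142 and 136 CPM with the Kif3a guide. The libraries of each group lay close together, and it rose in Ofd1 CRISPR (log2 fold change 0.46, SE 0.0688, adjusted p = 0.00239) and in Kif3a CRISPR (log2 fold change 0.52, SE 0.0745, adjusted p = 0.00121). Ephb6, whose kinase domain is inactive, stood at 17.4 and 16.6 CPM with the GFP guide, 22.3, 22.1 and 20.3 CPM with the Ofd1 guide and 18.4 and 17.2 CPM with the Kif3a guide. It was called higher in Ofd1 CRISPR (log2 fold change 0.35, SE 0.0944, adjusted p = 0.0379) and was not called in Kif3a CRISPR (log2 0.07, adjusted p = 0.694), where 1 library lay between the controls and the other above both.

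The other EphB gene called, Ephb3, stood at 24.8 and 30.6 CPM with the GFP guide, 19.1, 20.04 and 20.1 CPM with the Ofd1 guide and 14.6 and 18.3 CPM with the Kif3a guide. It fell in Ofd1 CRISPR (log2 fold change -0.49, SE 0.119, adjusted p = 0.0241) and in Kif3a CRISPR (log2 fold change -0.76, SE 0.133, adjusted p = 0.00350), with every such library below both controls. Epha8, an EphA receptor, stood at 12.9 and 16.5 CPM with the GFP guide, 3.64, 7.05 and 6.48 CPM with the Ofd1 guide and 4.23 and 9.19 CPM with the Kif3a guide. It fell in Ofd1 CRISPR (log2 fold change -1.36, SE 0.297, adjusted p = 0.0144) and in Kif3a CRISPR (log2 fold change -1.15, SE 0.327, adjusted p = 0.0356), and Ofd1 CRISPR 1 and Kif3a CRISPR 1 were the lowest of their groups. The Efnb2 receptor Ephb4 (log2 0.25, adjusted p = 0.0613 in Ofd1 CRISPR, log2 0.08, adjusted p = 0.583 in Kif3a CRISPR) and the most abundant EphA genes per length, Epha3 (log2 0.09, adjusted p = 0.495 and log2 0.22, adjusted p = 0.0962) and Epha4 (log2 -0.13, adjusted p = 0.257 and log2 -0.02, adjusted p = 0.878), did not pass. In Ofd1 CRISPR the call of Ephb3 ended without any 1 of GFP control 2, Ofd1 CRISPR 1 and Ofd1 CRISPR 2 (adjusted p from 0.0599 to 0.243), that of Epha8 without GFP control 2 (adjusted p = 0.0623), and that of Ephb6 without any 1 library other than Ofd1 CRISPR 3 (adjusted p from 0.0520 to 0.252) and by DESeq2 (adjusted p = 0.0893). In Kif3a CRISPR that of Ephb3 ended without Kif3a CRISPR 1 (adjusted p = 0.0579) and that of Epha8 without GFP control 2 (adjusted p = 0.122) and without Kif3a CRISPR 1 (adjusted p = 0.262).

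Of 17 tested semaphorin genes, 4 rose and 1 fell in Ofd1 CRISPR (23.5% and 5.88%, against 5.35% and 6.32% of all tested genes). In Kif3a CRISPR 3 rose and 1 fell (17.6% and 5.88%, against 7.55% and 8.84%). Sema7a, a membrane-anchored semaphorin that acts through plexin C1 and integrins, was the most abundant of them per length. It stood at 329.9 and 319 CPM in the libraries with the GFP guide, 679, 488 and 505 CPM in those with the Ofd1 guide and 588 and 539 CPM in those with the Kif3a guide. All 5 Ofd1 and Kif3a CRISPR libraries exceeded the controls by more than the controls differed from each other. Sema7a rose 1.72-fold in Ofd1 CRISPR (log2 fold change 0.78, SE 0.125, adjusted p = 0.00341) and 1.74-fold in Kif3a CRISPR (log2 fold change 0.80, SE 0.134, adjusted p = 0.00286). Sema5b, a transmembrane semaphorin with thrombospondin repeats, stood at 19.7 and 22.1 CPM with the GFP guide, 31.2, 28.5 and 24.3 CPM with the Ofd1 guide and 29.3 and 31.7 CPM with the Kif3a guide. It rose in Ofd1 CRISPR (log2 fold change 0.42, SE 0.114, adjusted p = 0.0366) and in Kif3a CRISPR (log2 fold change 0.54, SE 0.123, adjusted p = 0.0130).

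Sema6a, a transmembrane ligand of plexin A2 and A4 known for its role in granule cell migration, stood at 48.8 and 44.6 CPM with the GFP guide, 56.9, 59.6 and 53.5 CPM with the Ofd1 guide and 64.6 and 61.6 CPM with the Kif3a guide. Its rise was small in Ofd1 CRISPR (log2 fold change 0.28, SE 0.0777, adjusted p = 0.0413) and somewhat larger in value in Kif3a CRISPR (log2 fold change 0.43, SE 0.0841, adjusted p = 0.00591). Sema6c, of the same class, stood at 20.8 and 21.2 CPM with the GFP guide, 34.3, 27.1 and 26.04 CPM with the Ofd1 guide and 26.5 and 26.8 CPM with the Kif3a guide. It was called higher in Ofd1 CRISPR (log2 fold change 0.47, SE 0.117, adjusted p = 0.0261), and was not called in Kif3a CRISPR (log2 0.34, adjusted p = 0.0899), although both libraries lay above the controls. Sema4d, the ligand of plexin B1, stood at 29.99 and 29.2 CPM with the GFP guide, 16.9, 25.2 and 20.4 CPM with the Ofd1 guide and 18.5 and 19.5 CPM with the Kif3a guide. It fell in Ofd1 CRISPR (log2 fold change -0.51, SE 0.135, adjusted p = 0.0343) and in Kif3a CRISPR (log2 fold change -0.64, SE 0.150, adjusted p = 0.0151), and all 5 Ofd1 and Kif3a CRISPR libraries lay below both controls.

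Among the semaphorins that did not pass, Sema6d, the second most abundant per length of transcript, stood at 200.1 and 208 CPM with the GFP guide, 216, 208 and 202 CPM with the Ofd1 guide and 214 and 206 CPM with the Kif3a guide and was not called, with overlapping groups (log2 0.03, adjusted p = 0.804 in Ofd1 CRISPR, log2 0.04, adjusted p = 0.737 in Kif3a CRISPR). The plexin B2 ligands Sema4c (log2 0.21, adjusted p = 0.105 and log2 0.16, adjusted p = 0.221) and Sema4g (log2 0.15, adjusted p = 0.237 and log2 0.02, adjusted p = 0.910) were not called either. Sema4a stood at 3.88 and 1.30 CPM with the GFP guide, 1.23, 1.05 and 0.926 CPM with the Ofd1 guide and 1.08 and 0.703 CPM with the Kif3a guide, and GFP control 1, the library with the higher macrophage marker sum, was the highest. Secreted semaphorins of the third class were scarce: Sema3a and Sema3d had 0 counts, Sema3c had 4 counts over all libraries, and Sema3f, the highest of the class, reached 6.98 CPM. In Ofd1 CRISPR the call of Sema5b ended without any 1 library other than Ofd1 CRISPR 3 (adjusted p from 0.0591 to 0.251), that of Sema6a without any 1 library other than Ofd1 CRISPR 3 (adjusted p from 0.0569 to 0.326), that of Sema6c without GFP control 1 (adjusted p = 0.137) and without GFP control 2 (adjusted p = 0.0951) and that of Sema4d without any 1 library other than Ofd1 CRISPR 2 (adjusted p from 0.0603 to 0.146). In Kif3a CRISPR the call of Sema7a ended without Kif3a CRISPR 1 (adjusted p = 0.0510), that of Sema6a without GFP control 2 (adjusted p = 0.0666) and without Kif3a CRISPR 1 (adjusted p = 0.0685), that of Sema5b without any 1 of GFP control 1, Kif3a CRISPR 1 and Kif3a CRISPR 2 (adjusted p from 0.0685 to 0.105) and that of Sema4d without any 1 of GFP control 1, Kif3a CRISPR 1 and Kif3a CRISPR 2 (adjusted p from 0.0600 to 0.135).

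The semaphorin receptors comprised 11 tested plexin and neuropilin genes, of which 1 rose and 1 fell in Ofd1 CRISPR (9.09% each, near the 5.35% and 6.32% of all tested genes). In Kif3a CRISPR 3 rose and 1 fell (27.3% and 9.09%, against 7.55% and 8.84%). Plxna2, the receptor of Sema6a, stood at 322 and 299.6 CPM in the libraries with the GFP guide, 154, 221 and 212 CPM in those with the Ofd1 guide and 180.3 and 226 CPM in those with the Kif3a guide. It fell in Ofd1 CRISPR (log2 fold change -0.67, SE 0.138, adjusted p = 0.0115) and in Kif3a CRISPR (log2 fold change -0.62, SE 0.153, adjusted p = 0.0199), so this receptor was lower where its ligand was higher. All 5 Ofd1 and Kif3a CRISPR libraries lay below both controls. Plxnd1, the receptor of Sema3e, stood at 179 and 169 CPM with the GFP guide, 295, 239 and 202 CPM with the Ofd1 guide and 268 and 224 CPM with the Kif3a guide. It rose in Ofd1 CRISPR (log2 fold change 0.50, SE 0.135, adjusted p = 0.0367) and in Kif3a CRISPR (log2 fold change 0.50, SE 0.146, adjusted p = 0.0399), while Sema3e itself had at most 0.344 CPM.

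Plxnb2, a receptor known for its part in granule progenitor growth and migration, stood at 1320.2 and 1282 CPM with the GFP guide, 1581, 1552 and 1374 CPM with the Ofd1 guide and 1607 and 1616 CPM with the Kif3a guide. It rose in Kif3a CRISPR (log2 fold change 0.31, SE 0.0785, adjusted p = 0.0224), where both libraries lay above the controls. It was not called in Ofd1 CRISPR (log2 0.21, adjusted p = 0.0855), although all of its libraries lay above the controls as well. Plxna3, a partner of neuropilin 2 in semaphorin signalling, stood at 64.9 and 75.8 CPM with the GFP guide, 91.7, 87.5 and 73.6 CPM with the Ofd1 guide and 90.6 and 90.4 CPM with the Kif3a guide. It rose in Kif3a CRISPR (log2 fold change 0.36, SE 0.109, adjusted p = 0.0435) and did not pass in Ofd1 CRISPR (log2 0.26, adjusted p = 0.116), where Ofd1 CRISPR 3 lay below GFP control 2. Plxnc1, the receptor of Sema7a, stood at 506 and 515 CPM with the GFP guide, 477, 522 and 470.3 CPM with the Ofd1 guide and 565 and 537 CPM with the Kif3a guide, and was not called in Ofd1 CRISPR (log2 -0.06, adjusted p = 0.604), which overlapped the controls, or in Kif3a CRISPR (log2 0.11, adjusted p = 0.343).

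Plxnb1 (log2 0.00, adjusted p = 0.994 in Ofd1 CRISPR, log2 0.11, adjusted p = 0.539 in Kif3a CRISPR), Plxna1 (log2 -0.15, adjusted p = 0.278 and log2 -0.14, adjusted p = 0.339), Nrp1 (log2 -0.04, adjusted p = 0.806 and log2 0.04, adjusted p = 0.850) and Nrp2 (log2 -0.30, adjusted p = 0.0671 and log2 -0.20, adjusted p = 0.227) were not called. Plxna4 was near the floor, at 0.0982 to 0.487 CPM. In Ofd1 CRISPR the call of Plxna2 ended without GFP control 1 (adjusted p = 0.0512) and that of Plxnd1 without any 1 library other than Ofd1 CRISPR 3 (adjusted p from 0.0535 to 0.151). In Kif3a CRISPR the call of Plxna2 ended without GFP control 1 (adjusted p = 0.0723) and without Kif3a CRISPR 1 (adjusted p = 0.196), that of Plxnd1 without any 1 library other than Ofd1 CRISPR 1 or Ofd1 CRISPR 3 (adjusted p from 0.0548 to 0.292), that of Plxnb2 without any 1 of GFP control 1, GFP control 2, Kif3a CRISPR 1 and Kif3a CRISPR 2 (adjusted p from 0.0804 to 0.164) and that of Plxna3 without any 1 of GFP control 1, Ofd1 CRISPR 2, Kif3a CRISPR 1 and Kif3a CRISPR 2 (adjusted p from 0.0653 to 0.298).

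Of the Slit and Robo genes, 1 ligand gene fell and 1 receptor gene rose in each comparison. The Slit gene was 1 of 2 tested (50%, against 6.32% of all tested genes in Ofd1 CRISPR and 8.84% in Kif3a CRISPR). The Robo gene was 1 of 4 tested (25%, against 5.35% and 7.55%). Classes of 2 and 4 genes are too small for a result about the class. Slit3 stood at 7.56 and 8.91 CPM in the libraries with the GFP guide, 3.35, 5.05 and 4.79 CPM in those with the Ofd1 guide and 3.19 and 4.06 CPM in those with the Kif3a guide, with all 5 Ofd1 and Kif3a CRISPR libraries below both controls. It fell in Ofd1 CRISPR (log2 fold change -0.91, SE 0.190, adjusted p = 0.0121) and in Kif3a CRISPR (log2 fold change -1.19, SE 0.215, adjusted p = 0.00401). Slit1 stood at 0.820 to 1.45 CPM and did not pass, and Slit2 had 2 counts over all libraries. The receptor gene Robo2 stood at 148 and 147 CPM with the GFP guide, 213, 172 and 199.9 CPM with the Ofd1 guide and 241 and 198 CPM with the Kif3a guide. It rose in Ofd1 CRISPR (log2 fold change 0.41, SE 0.103, adjusted p = 0.0288) and in Kif3a CRISPR (log2 fold change 0.58, SE 0.112, adjusted p = 0.00585).

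Robo1, the neighbour of Robo2 in the RefSeq order, stood at 80.1 and 74.8 CPM with the GFP guide, 81.2, 86.1 and 77.96 CPM with the Ofd1 guide and 87.3 and 85.1 CPM with the Kif3a guide and was not called in Ofd1 CRISPR (log2 0.08, adjusted p = 0.518) or Kif3a CRISPR (log2 0.15, adjusted p = 0.198). Robo3 and Robo4 had at most 0.721 and 0.222 CPM. In Ofd1 CRISPR the call of Slit3 ended without GFP control 2 (adjusted p = 0.0873) and that of Robo2 without any 1 of GFP control 1, GFP control 2, Ofd1 CRISPR 1 and Ofd1 CRISPR 3 (adjusted p from 0.0524 to 0.124). In Kif3a CRISPR the call of Slit3 ended without Kif3a CRISPR 1 (adjusted p = 0.0725) and that of Robo2 without Kif3a CRISPR 1 (adjusted p = 0.0882).

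Levels can be set against each other only per length, and for this CPM was divided by the kilobases of merged exons of each gene (GENCODE M21). In GFP control the most abundant guidance transcript was Plxnb2, at 198 CPM per kb, followed by Sema7a at 98.4 and its receptor Plxnc1 at 69.96 CPM per kb. Sema6d (28.4 CPM per kb), Unc50 (28.5) and Plxna2 (28.2) came next. In Ofd1 CRISPR Sema7a reached 169 CPM per kb and in Kif3a CRISPR 171 CPM per kb, so the distance to Plxnc1, at 67.1 and 75.5 CPM per kb, was wider there. Plxna2 was at 17.7 and 18.4 CPM per kb. Among the netrin receptors in GFP control, Dcc (13.9 CPM per kb) and Unc5b (13.1) were of like level and Unc5a (1.56) was far lower. Unc5a stood at 7.58 CPM per kb in Ofd1 CRISPR and 7.09 in Kif3a CRISPR, still below Dcc. In the rank of levels per kb over all libraries, the 8 highest uncalled genes were Plxnc1, Sema6d, Unc50, Sema4g, Ephb4, Efna1, Plxna1 and Nrp1.

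**Figure D3:**
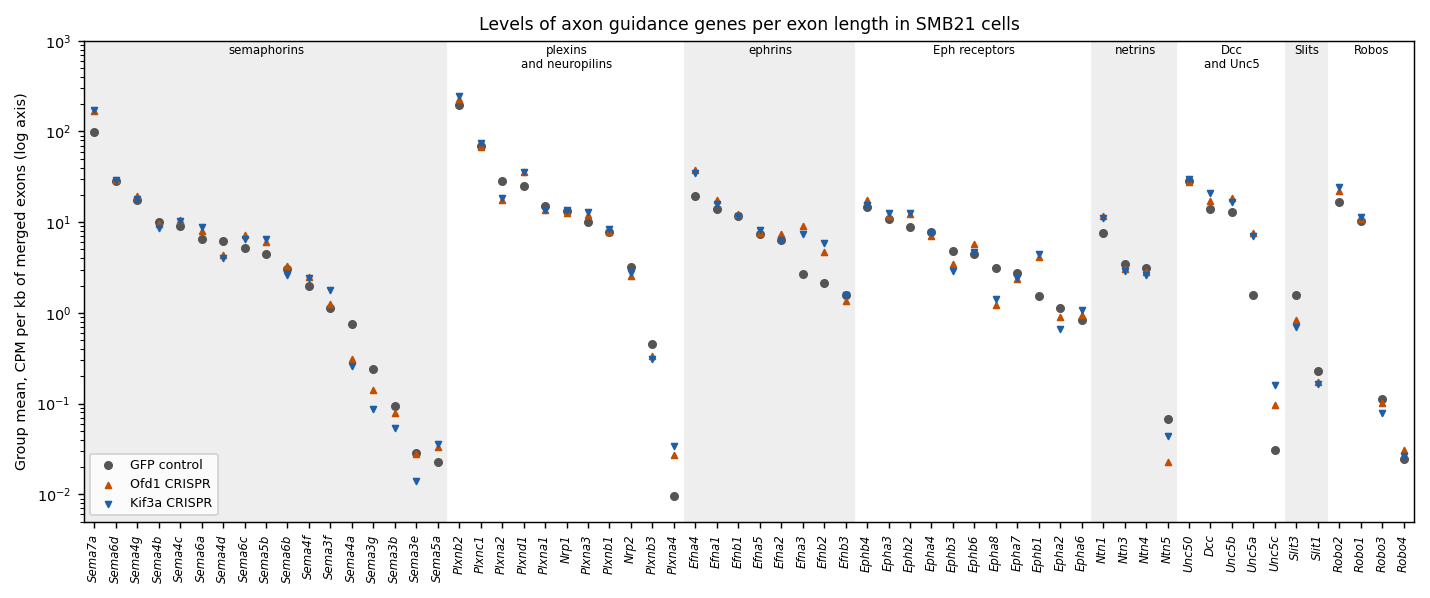
Group mean level of each tested guidance gene in CPM per kb of merged exons (log axis) in GFP control (circles), Ofd1 CRISPR (upward triangles) and Kif3a CRISPR (downward triangles), grouped by class. Plxnb2, Sema7a and Plxnc1 stand above the other genes in all 3 groups, and the groups lie within a small distance of each other for most genes.

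At the low end, 10 of the 72 genes had fewer than 10 counts over all 7 libraries and were not tested. Epha5, Sema3a, Sema3d, Unc5d and the antisense row Plxna4os1 had 0 counts, Unc5cl had 1, Slit2 had 2, Sema3c had 4, Epha1 had 6 and Epha10 had 7. A further 11 of the 62 tested genes had a mean under 2 CPM. Of these 11 only Unc5c was called.

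The 3 Ofd1 CRISPR libraries were then compared with the 2 Kif3a CRISPR libraries to ask whether the guides differed in these genes. None of the 62 guidance genes was called higher (0.103% of all tested genes were) or lower (0% of all tested genes were) in Ofd1 CRISPR against Kif3a CRISPR by edgeR. At an unadjusted p under 0.05 there were 6 of the 62 by edgeR, against 1243 of all 14588 tested genes, a like share. DESeq2 had 3 guidance genes at that level and called none either after adjustment. The smallest adjusted p was that of Dcc, at 0.323. Its log2 difference, Ofd1 CRISPR minus Kif3a CRISPR, was -0.29 (95% interval -0.46 to -0.11), and the lowest Kif3a CRISPR library stood above all 3 Ofd1 CRISPR libraries. All intervals here are per gene and not adjusted for the number of genes. Dcc and Ephb6 had the smallest p-values of the 62, so intervals without 0 are no calls. For Ephb6, called against GFP control in Ofd1 CRISPR and not in Kif3a CRISPR, all Ofd1 CRISPR libraries stood above both Kif3a CRISPR libraries. Its difference was 0.28 (95% interval 0.07 to 0.48, adjusted p = 0.455). For Efnb2 it was -0.33 (95% interval -0.67 to 0.01), so that the value was lower in Ofd1 CRISPR but the interval held 0.

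Other intervals were wide enough to hold sizeable differences. The difference was 0.10 (95% interval -0.40 to 0.60) for Unc5a, 0.33 (95% interval -0.13 to 0.78) for Efna3 and -0.10 (95% interval -0.51 to 0.30) for Ephb1. For the scarce Unc5c it was -0.72 (95% interval -1.73 to 0.29). Over the 24 called genes the differences ran from -0.72 to 0.33. These values do not show that the guides acted alike.

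Within each guide group, replicate 1 stood farthest from the controls for most called genes. Ofd1 CRISPR 1 was the highest of its 3 libraries for 13 of the 16 genes that rose and the lowest for all 5 that fell. Over all tested genes it was the highest for 80.4% of those that rose and the lowest for 71.9% of those that fell. Kif3a CRISPR 1 was the higher of its pair for 15 of the 17 genes that rose and the lower for all 5 that fell, against 74.2% and 78.1% over all genes. The guidance genes therefore shared this order with most other called genes. The Hedgehog target Gli1 stood at 427 and 476 CPM with the GFP guide, 167, 325 and 265 CPM with the Ofd1 guide and 201 and 310.4 CPM with the Kif3a guide, so that the same libraries were the lowest in their groups. The transcripts of the targeted genes were not lowest there. Kif3a was at 73.9 CPM in Kif3a CRISPR 1 and 60.7 CPM in Kif3a CRISPR 2. Ofd1 was at 20.97 CPM in Ofd1 CRISPR 1 and 19.98 CPM in Ofd1 CRISPR 2. Ofd1 CRISPR 1 had the highest sum of granule neuron lineage markers, at 3362 CPM. In the other group this order did not hold, with 3097 CPM in Kif3a CRISPR 1 and 3117 CPM in Kif3a CRISPR 2.

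The number of called guidance genes depended on single libraries. In Ofd1 CRISPR 8 genes rose when GFP control 1 was left out, 8 when it was GFP control 2, 10 when it was Ofd1 CRISPR 1 and 19 when it was Ofd1 CRISPR 3. Falls numbered 3 with GFP control 1 left out, 2 with GFP control 2 left out and 3 with Ofd1 CRISPR 1 left out. In Kif3a CRISPR 5 genes rose when Kif3a CRISPR 1 was left out, and 11 when either control or Kif3a CRISPR 2 was. Falls numbered 0 with Kif3a CRISPR 1 left out and 3 with GFP control 1 left out. Calls over all genes moved in the same way. Against 780 higher and 922 lower in Ofd1 CRISPR with all libraries, there were 285 and 387 with GFP control 1 left out, 283 and 598 with GFP control 2 left out, 449 and 585 with Ofd1 CRISPR 1 left out and 1138 and 1364 with Ofd1 CRISPR 3 left out. Against 1101 and 1289 in Kif3a CRISPR, there were 244 and 403 with Kif3a CRISPR 1 left out, 415 and 674 with GFP control 1 left out, 474 and 961 with GFP control 2 left out and 725 and 936 with Kif3a CRISPR 2 left out. Efna3, Efna4, Efnb2, Ephb1, Ephb2, Sema7a and Unc5a kept their call in Ofd1 CRISPR without any 1 library, 7 of 21. In Kif3a CRISPR 5 of 22 did so, Dcc, Efnb2, Ephb1, Ephb2 and Unc5a. Unc5a, Efnb2, Ephb1 and Ephb2 are thus the genes that rose in both comparisons whichever library was left out.

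**Figure D4:**
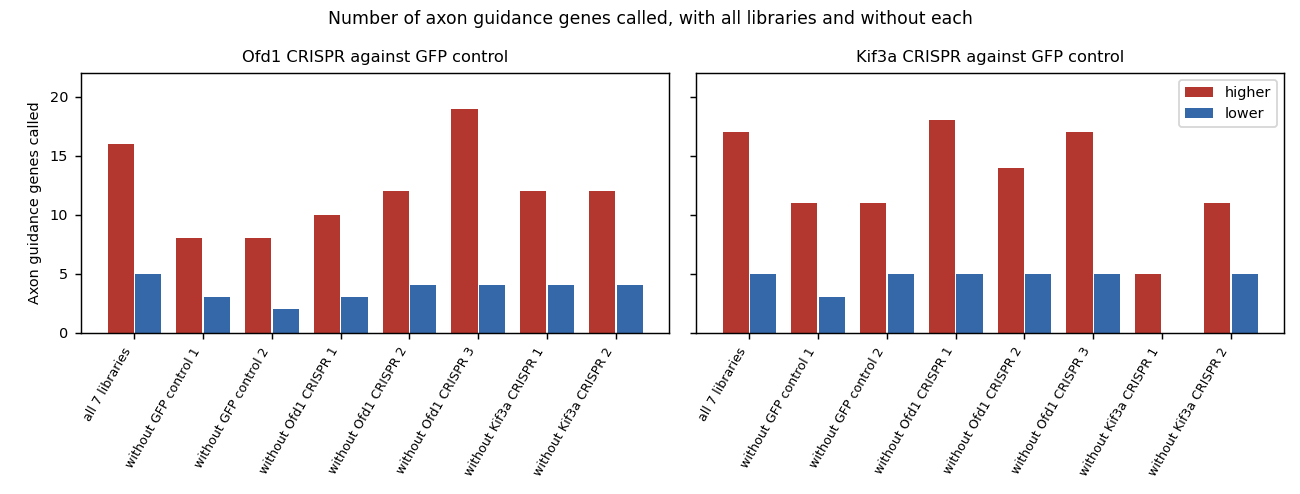
Number of guidance genes called higher (red) and lower (blue) against GFP control with all 7 libraries and without each library in turn, for Ofd1 CRISPR (left) and Kif3a CRISPR (right). The number that rose ranges from 8 to 19 in Ofd1 CRISPR and from 5 to 18 in Kif3a CRISPR.

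Other genes of these pathways were counted from 2 further lists. Of 27 tested genes of a list of 30 other guidance cues and receptors, 3 rose and 6 fell in Ofd1 CRISPR (11.1% and 22.2%, against 5.35% and 6.32% of all tested genes). In Kif3a CRISPR 4 rose and 6 fell (14.8% and 22.2%, against 7.55% and 8.84%). Their median log2 fold change was -0.01 in Ofd1 CRISPR, which became 0.02 when library totals alone were used for scaling, and -0.04 in Kif3a CRISPR. More genes of this list fell than rose in both comparisons. Vldlr, a reelin receptor, stood at 333 and 366 CPM with the GFP guide, 161, 217 and 210.5 CPM with the Ofd1 guide and 178 and 209 CPM with the Kif3a guide and fell in Ofd1 CRISPR (log2 -0.83, adjusted p = 0.00194) and in Kif3a CRISPR (log2 -0.85, adjusted p = 0.00173). Its ligand gene Reln stood at 157 and 170.0 CPM with the GFP guide, 228, 192 and 189 CPM with the Ofd1 guide and 262 and 243 CPM with the Kif3a guide and rose in Ofd1 CRISPR (log2 0.31, adjusted p = 0.0437) and in Kif3a CRISPR (log2 0.63, adjusted p = 0.00172). In Ofd1 CRISPR that call ended without any 1 library other than Ofd1 CRISPR 3 (adjusted p from 0.0635 to 0.278). The chemokine gene Cxcl12, which guides granule progenitors, stood at 17.2 and 15.1 CPM with the GFP guide, 45.9, 31.2 and 28.2 CPM with the Ofd1 guide and 46.8 and 37.4 CPM with the Kif3a guide and rose in Ofd1 CRISPR (log2 1.12, adjusted p = 0.00486) and in Kif3a CRISPR (log2 1.38, adjusted p = 0.00144).

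Of the receptors of myelin inhibitors, Rtn4rl2 fell in Kif3a CRISPR (log2 -1.11, adjusted p = 0.000683) and in Ofd1 CRISPR (log2 -0.48, adjusted p = 0.0325). Rtn4r did so as well (log2 -0.97, adjusted p = 0.000884 and log2 -0.47, adjusted p = 0.0274), and Rtn4rl1 was not called (log2 0.34, adjusted p = 0.181 and log2 0.48, adjusted p = 0.0646). The Ofd1 CRISPR call of Rtn4rl2 ended without any 1 GFP control or Ofd1 CRISPR library (adjusted p from 0.0521 to 0.222), and that of Rtn4r without any 1 of these other than Ofd1 CRISPR 3 (adjusted p from 0.0726 to 0.0962). Rgmb, a neogenin ligand, fell in Ofd1 CRISPR (log2 -0.33, adjusted p = 0.0118) and in Kif3a CRISPR (log2 -0.33, adjusted p = 0.0140). Dscaml1, an adhesion molecule, rose in Ofd1 CRISPR (log2 0.54, adjusted p = 0.0130) and in Kif3a CRISPR (log2 0.59, adjusted p = 0.00904). The Rgmb call in Ofd1 CRISPR ended without GFP control 1 (adjusted p = 0.101) and without GFP control 2 (adjusted p = 0.0827), and that of Dscaml1 without GFP control 1 (adjusted p = 0.155). In Kif3a CRISPR that of Rgmb ended without any 1 of GFP control 1, GFP control 2 and Kif3a CRISPR 1 (adjusted p from 0.0762 to 0.104), and that of Dscaml1 without GFP control 1 (adjusted p = 0.107) and without Kif3a CRISPR 1 (adjusted p = 0.0741). No gene of this list, or of the list that follows, was called between Ofd1 CRISPR and Kif3a CRISPR.

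Of 50 genes of intracellular effectors of guidance receptors, all tested, 7 rose (14%) and 4 fell (8%) in each comparison, with a median log2 fold change of 0.03 in Ofd1 CRISPR and 0.06 in Kif3a CRISPR. Over all tested genes 5.35% rose and 6.32% fell in Ofd1 CRISPR and 7.55% and 8.84% in Kif3a CRISPR, so the share of effectors that fell lay near the background. Limk1, the kinase that inactivates cofilin, stood at 125 and 115 CPM with the GFP guide, 214, 184 and 168 CPM with the Ofd1 guide and 187 and 184 CPM with the Kif3a guide. It rose in Ofd1 CRISPR (log2 0.65, adjusted p = 0.00239) and in Kif3a CRISPR (log2 0.62, adjusted p = 0.00272). Mical2, an actin-oxidising enzyme, stood at 74.8 and 75.6 CPM with the GFP guide, 42.1, 51.8 and 51.2 CPM with the Ofd1 guide and 33.1 and 43.5 CPM with the Kif3a guide and fell in Ofd1 CRISPR (log2 -0.64, adjusted p = 0.00603) and in Kif3a CRISPR (log2 -0.98, adjusted p = 0.000795). Dpysl4, of the collapsin response mediator family, rose in Ofd1 CRISPR (log2 0.54, adjusted p = 0.00560) and in Kif3a CRISPR (log2 0.60, adjusted p = 0.00334). Sh2d3c, an adaptor, rose in Ofd1 CRISPR (log2 0.81, adjusted p = 0.00314) and was not called in Kif3a CRISPR (log2 0.22, adjusted p = 0.317). Myo10, a motor of filopodia, rose in Ofd1 CRISPR (log2 0.35, adjusted p = 0.0256) and in Kif3a CRISPR (log2 0.46, adjusted p = 0.00746). The call of Dpysl4 in Ofd1 CRISPR ended without GFP control 1 (adjusted p = 0.0526) and that of Myo10 in Kif3a CRISPR without Kif3a CRISPR 1 (adjusted p = 0.0891). For Myo10 the Ofd1 CRISPR call ended without any 1 of GFP control 1, GFP control 2, Ofd1 CRISPR 1 and Ofd1 CRISPR 2 (adjusted p from 0.0617 to 0.137).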

How the data were processed

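RNA of 7 libraries was read as 75-base single-end reads from stranded poly-A libraries, per the labels' protocols. The deposited table holds raw counts per gene symbol, whole numbers made by the authors and not normalized; the submitters' processing notes name STAR, DESeq2 and mm9 without versions or roles. No source used here gives the counter, its strand setting or the annotation, so overlapping genes could share reads.

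The 62 guidance genes with 10 or more counts were tested within all 14588 such genes (99.99% of counts). One edgeR 4.0.16 (R 4.3.3) quasi-likelihood model with TMM factors and a mean per group was fitted to the 7 libraries (4 residual degrees of freedom, common biological coefficient of variation 7.57%), and p-values were Benjamini-Hochberg adjusted over all tested genes. Every adjusted p is from this model unless DESeq2 (1.42.0) is named. SE is the absolute log2 fold change divided by the square root of F. The steps were tested on simulated counts.

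The genes and lists were chosen with earlier results of these data known. Named are all called guidance genes, the 8 uncalled with the highest level per kb, partners of named genes, and up to 4 called genes per list and comparison by smallest adjusted p. Other uncalled genes named for a low level, and those gained under an alternative, were chosen after their values were seen. Alternatives were other scalings, other filters, DESeq2, a replicate block and leaving out each library.

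Without molecular identifiers, a floor of 3 counts covers counting error alone. Replicates differed by more than sampling noise (chi-square per degree of freedom 4.06 to 14.5), and none was merged.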

Additional observations from a re-analysis of the deposited data

How the results depend on the processing

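No called guidance gene changed direction under any alternative. With RLE factors, library totals alone, no filter or DESeq2, 16 or 17 guidance genes rose and 5 to 7 fell in Ofd1 CRISPR, and 17 or 18 rose and 5 to 7 fell in Kif3a CRISPR. Over all genes these settings gave 743 to 1010 higher and 774 to 1251 lower in Ofd1 CRISPR. In Kif3a CRISPR they gave 986 to 1351 higher and 1158 to 1563 lower. With edgeR's filterByExpr 8 of 56 guidance genes fell in Kif3a CRISPR in place of 5 of 62, the added genes being Epha2, Sema3g and Sema4a. Fewer genes were tested with it (12875), and 1401 of these fell in Kif3a CRISPR, in place of 1289 of 14588. Leaving out each library in turn gave 8 to 19 rises and 2 to 4 falls in Ofd1 CRISPR, and 5 to 18 rises and 0 to 5 falls in Kif3a CRISPR; with a lone GFP control left, that library is assumed to vary like the other groups. The count between Ofd1 CRISPR and Kif3a CRISPR was 0 in every setting. Over all genes, library totals alone gave 1010 higher and 774 lower in Ofd1 CRISPR in place of 780 and 922, and 1351 and 1158 in Kif3a CRISPR in place of 1101 and 1289. The median of all genes moved by at most 0.04 on the log2 scale. With the replicate number as a block, 22 guidance genes rose and 6 fell in Ofd1 CRISPR, and 20 rose and 9 fell in Kif3a CRISPR. Only Ofd1 CRISPR has a replicate 3, so the block fits that library exactly and drops it from the Ofd1 CRISPR comparison. Leaving out Ofd1 CRISPR 3 without a block gave 19 rises and 4 falls. The gain in Ofd1 CRISPR calls thus cannot be credited to the block alone. With the block, Sema6c was also called in Kif3a CRISPR (adjusted p = 0.0296). Plxna3 (adjusted p = 0.00494), Plxnb2 (0.0176) and Unc5c (0.00676) were called with it in Ofd1 CRISPR. Over all genes the block gave 1585 higher and 1990 lower, and 1697 higher and 2015 lower. The correlation of deviations between same-numbered libraries was 0.220 and 0.321 for GFP control with Ofd1 CRISPR, 0.328 and 0.263 for Ofd1 CRISPR with Kif3a CRISPR, and 0.0239 for GFP control with Kif3a CRISPR. The last is a single value, because in groups of 2 libraries the deviations from the group mean mirror each other. The numbers were not taken as pairs, because not every correlation was over 0.1. Depth limits the 11 tested genes with a mean under 2 CPM, and 2 or 3 libraries per group limit the rest.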
